A study of Mus musculus with 18 samples.

Results

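The transcripts of 36 genes that fold proteins in the endoplasmic reticulum (ER), sense unfolded protein there, or remove it by ER-associated degradation (ERAD) were followed in mouse lenses carrying an α-crystallin mutation. The genes were listed by symbol for what their products are known to do. All 36 were found among the 40800 genes of the count table, and 35 of them were among the 13938 genes with enough counts to be tested. *Derl3*, which encodes a derlin of the ER membrane, had 0 to 6 counts in each library and was left out of the tests.

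RNA came from whole lenses of C57BL/6J mice, with several lenses combined in each library and 3 libraries in each of 6 groups. The *Cryaa* line was sampled at 2 days of age, as *Cryaa*-WT mice without the mutation, *Cryaa*-R49C-het mice with 1 mutant allele and *Cryaa*-R49C-homo mice with 2 mutant alleles. The *Cryab* line was sampled at 14 days, with wild-type mice (*Cryab*-WT), heterozygous mice (*Cryab*-R120G-het) and homozygous mice (*Cryab*-R120G-homo). Both mutations are knock-ins at the gene's own locus, and no transgene promoter is named for either line. Line and age change together and cannot be told apart. The genotype field of the *Cryab* mutant libraries names the other line, and their titles were used. P-values measure the spread between these pooled libraries.

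The ER is where secreted and membrane proteins fold. The HSP70 chaperone BiP, encoded by *Hspa5*, holds unfolded chains with the help of its DnaJ partners, while disulfide isomerases form and rearrange disulfide bonds and the lectins calnexin and calreticulin retain unfinished glycoproteins. When unfolded protein builds up, IRE1 (*Ern1*), ATF6 and PERK (*Eif2ak3*) start the unfolded protein response, in which spliced *Xbp1* and cleaved ATF6 raise chaperone and ERAD genes and PERK raises translation of ATF4. Lens fibre cells degrade their ER as they mature, so an intact ER is found in the lens epithelium and the younger fibres. Gene counts do not tell spliced from unspliced *Xbp1* mRNA, nor do they show the cleavage of ATF6 or the phosphorylation of PERK.

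Library totals ranged from 14272174 to 29639719 counts. The scaling factors of the trimmed mean of M values (TMM) ran from 1.20 to 2.27 in the *Cryaa* line and from 0.49 to 0.77 in the *Cryab* line, and a change is given relative to the typical gene after this scaling. Lens fibre markers were abundant in every library (8 of 9 detected; *Lim2* was at 0 in all 18). Their summed level was 131633 to 193851 CPM (counts scaled to a common library total) in *Cryaa*-WT, 145853 to 220500 CPM in *Cryaa*-R49C-het, 161828, 72451 and 51651 CPM in *Cryaa*-R49C-homo replicates 1, 2 and 3, and 468769 to 638296 CPM in the *Cryab* line. *Cryaa*-R49C-homo replicate 1 stood apart from the other homozygous libraries in another way as well: the transcript Gm42418, which overlaps ribosomal RNA sequence, took 2.53% of its counts, against 24.5% and 42.6% in replicates 2 and 3. In *Cryab*-WT replicate 1 the 6 photoreceptor markers summed to 759 CPM, against 20.5 and 78.6 CPM in replicates 2 and 3, although *Cryab*-R120G-homo libraries reached 1142 CPM. In whole lenses, fewer cells of a type and less RNA per cell cannot be told apart.

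Promoter windows (250 bases before and 50 bases after the RefSeq transcript start, GRCm38.p6) were on hand for 30 of the 36 genes; *Hyou1*, *Hspa13*, *Sil1*, *Manf*, *Atf6* and *Derl1* had none. They were searched on both strands for the ER stress response element (ERSE), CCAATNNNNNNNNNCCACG, which ATF6 and XBP1 bind with the CCAAT factor NF-Y, for ERSE-II, ATTGGNCCACG, for the core of the unfolded protein response element, TGACGTG, and for the C/EBP-ATF response element, TGATGNAAN. ERSE was found in 10 of the 30 genes (*Hspa5*, *Hsp90b1*, *Dnajc3*, *Calr*, *Canx*, *Pdia6*, *Creld2*, *Ero1lb*, *Syvn1* and *Derl3*), whereas 0.137% of all 27025 genes with a window had it. ERSE-II was found in *Herpud1* and *Dnajb11* and in 0.0444% of all genes. The TGACGTG core was present in *Hspa5* and *Txndc5* (2.22% of all genes), and the C/EBP-ATF element in *Herpud1* and *Txndc5* (4.50% of all genes). The CCAAT letters inside ERSE also count as a CCAAT box, which by itself was present in 41.1% of all genes. A match describes the letters of the window and not the binding of a factor. The 36 genes were listed for known roles and include chaperone and ERAD genes that ATF6 and XBP1 raise. A higher share of their elements in this list is therefore not an independent result.

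The 250 bases before the start are shown for *Hspa5*, *Hsp90b1* and *Herpud1*, the main chaperones and the ERAD gene on which the results turn, in the direction of transcription, with matches to the 4 elements in capitals. The window of *Hspa5* (chr2:34771840-34772089, plus strand) holds the TGACGTG core and 1 ERSE, that of *Hsp90b1* (chr10:86705445-86705694, minus strand) holds 2 ERSE in opposite directions, and that of *Herpud1* (chr8:94386179-94386428, plus strand) holds a C/EBP-ATF element on the minus strand and an ERSE-II. GENCODE vM21 places the start of *Hspa5* and of *Hsp90b1* farther upstream, inside the stretch shown.
Hspa5: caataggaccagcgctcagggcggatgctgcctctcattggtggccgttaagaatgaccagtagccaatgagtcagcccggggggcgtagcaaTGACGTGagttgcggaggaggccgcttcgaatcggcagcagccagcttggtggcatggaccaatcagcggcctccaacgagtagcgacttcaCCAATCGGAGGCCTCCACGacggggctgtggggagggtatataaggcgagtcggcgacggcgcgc
Hsp90b1: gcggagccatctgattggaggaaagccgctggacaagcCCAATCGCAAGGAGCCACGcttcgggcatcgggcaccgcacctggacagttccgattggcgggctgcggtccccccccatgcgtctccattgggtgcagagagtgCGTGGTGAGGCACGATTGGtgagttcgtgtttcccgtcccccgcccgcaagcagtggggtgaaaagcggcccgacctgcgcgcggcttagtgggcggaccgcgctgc
Herpud1: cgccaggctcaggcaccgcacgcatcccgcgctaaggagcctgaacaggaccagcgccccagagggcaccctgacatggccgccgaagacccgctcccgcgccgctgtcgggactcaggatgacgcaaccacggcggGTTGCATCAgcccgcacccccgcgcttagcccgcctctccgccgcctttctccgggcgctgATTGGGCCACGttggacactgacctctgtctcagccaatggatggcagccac

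Levels between genes were compared as TMM-scaled CPM per kb of exon. In *Cryaa*-WT the highest means belonged to the disulfide isomerases *Pdia6* (52.2 ± 9.49, SD, n = 3) and *Pdia3* (26.4 ± 1.61), followed by *Calr* (18.6 ± 2.54), *Hspa5* (17.8 ± 2.78) and *Canx* (17.0 ± 1.75), whose ranges overlapped. The sensors stood near the bottom, at 0.565 for *Atf6*, 0.129 for *Eif2ak3* and 0.127 for *Ern1*, while their target *Xbp1* stood at 4.67. The low level limits *Ern1* and *Eif2ak3*, which had 4 to 36 and 2 to 29 counts in a library. *Herpud1* moved most in this order: its mean was 8.21 CPM per kb in *Cryaa*-WT and 58.3 in *Cryaa*-R49C-homo, where it was the highest of the 36.

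**Figure D1:**
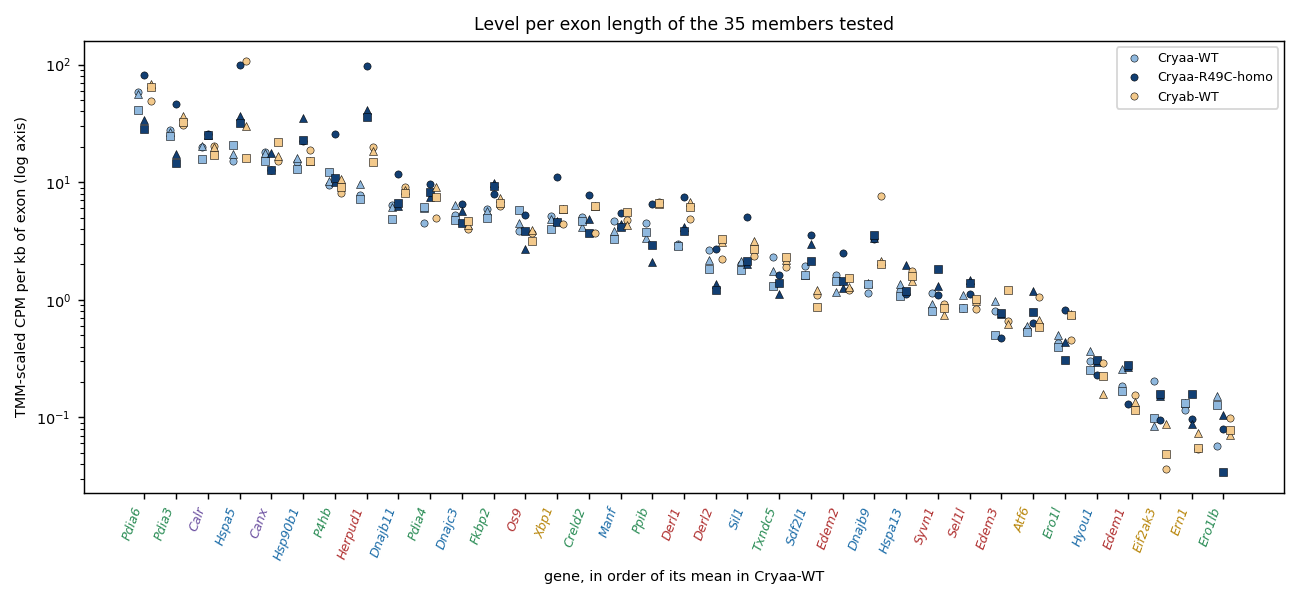
Level per exon length of the 35 genes tested, on a log axis, in *Cryaa*-WT, *Cryaa*-R49C-homo and *Cryab*-WT libraries (circle, triangle and square are replicates 1, 2 and 3; label colours mark blue HSP70 and HSP90 chaperones, purple lectins, green folding enzymes, gold sensors with *Xbp1*, red ERAD). *Pdia6* leads in *Cryaa*-WT at 52.2 CPM per kb and the sensors *Eif2ak3* and *Ern1* lie near 0.13.

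Homozygous *Cryaa*-R49C lenses were compared with wild-type lenses of the line first. Of the 35 genes tested, 5 were higher in *Cryaa*-R49C-homo at a false discovery rate (FDR) of at most 0.05 and 0 were lower (edgeR's quasi-likelihood test, adjusted by Benjamini-Hochberg over all 13938 genes). Over all genes, 9.79% passed in either direction and 4.87% passed as higher. The 5 were *Herpud1* and *Derl1* of ERAD, the chaperone *Hsp90b1*, the BiP partner *Dnajb9* and the prolyl isomerase *Fkbp2*. The median log2 difference was 0.25 over the 35 genes and 0.00473 over all genes. The median of the 35 was 0.07 (19 above 0) without *Cryaa*-R49C-homo replicate 1, 0.43 without *Cryaa*-WT replicate 1 or *Cryaa*-R49C-homo replicate 3, and 0.23 to 0.33 without any other library. The lowest homozygous library lay above the highest wild-type library for 11 of the 35 genes and the reverse held for 0, where groups did not overlap for 24.5% of all genes. When only the libraries of these groups were fitted, *Herpud1* and *Dnajb9* passed, whereas *Hsp90b1* (FDR = 0.14), *Derl1* (0.17) and *Fkbp2* (0.15) did not, and the share of all genes that passed was 3.39%.

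*Herpud1* (chr8:94386438-94395377, GRCm38) encodes a membrane protein that gathers the ERAD ubiquitin ligase complex. It measured 18.2, 22.4 and 16.8 CPM in the 3 *Cryaa*-WT libraries, 16.7, 25.8 and 16.8 CPM in *Cryaa*-R49C-het, and 229, 95.9 and 83.3 CPM in *Cryaa*-R49C-homo. Every homozygous library stood above the 6 others, and replicate 1 stood above the other homozygous ones. The fold was 7.10 (log2 2.83 ± 0.31, SE; FDR = 2.0e-06), and the call held with each of the 6 libraries left out, where the log2 value ran from 2.22 without homozygous replicate 1 to 3.08.

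*Dnajb9* (chr12:44205559-44210326) encodes ERdj4, a DnaJ protein that brings BiP to its clients and to IRE1. Its levels were 2.90, 3.55 and 3.50 CPM in *Cryaa*-WT, 2.53, 3.10 and 2.99 CPM in *Cryaa*-R49C-het, and 8.41, 8.49 and 9.01 CPM in *Cryaa*-R49C-homo. Here the homozygous libraries lay close together, replicate 1 included, and well apart from the rest. The log2 difference was 1.38 ± 0.35 (FDR = 0.014), and 1.29 with FDR = 0.071 without *Cryaa*-WT replicate 1, the only library whose absence lost the call.

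*Hsp90b1* (chr10:86690209-86705509) encodes GRP94, the HSP90 of the ER. It measured 59.9, 64.6 and 52.0 CPM in *Cryaa*-WT, 56.3, 69.5 and 71.1 CPM in *Cryaa*-R49C-het, and 89.9, 142 and 92.7 CPM in *Cryaa*-R49C-homo. The homozygous libraries were the 3 highest of the line, with replicate 2 rather than replicate 1 on top. The log2 difference from wild type was 0.88 ± 0.21 (FDR = 0.0095), and without homozygous replicate 2 it was 0.63 (FDR = 0.072). Exons of other annotated genes cover 15.7% of its exon bases, 1 of those genes lying on the opposite strand, and the strand setting of the counting is not stated.

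*Derl1* (chr15:57869502-57892448), a derlin of the channel through which ERAD clients leave the ER, measured 9.93, 9.79 and 9.53 CPM in *Cryaa*-WT, 11.1, 12.3 and 12.7 CPM in *Cryaa*-R49C-het and 25.0, 13.9 and 12.8 CPM in *Cryaa*-R49C-homo. The 3 groups did not overlap and stood in the order of mutant alleles, although homozygous replicates 2 and 3 lay just above the heterozygous libraries. The log2 difference between homozygous and wild-type lenses was 0.82 ± 0.23 (FDR = 0.024). It was 0.45 (FDR = 0.078) without homozygous replicate 1 and was 0.81 to 0.84 (FDR from 0.075 to 0.085) without any 1 of *Cryaa*-WT replicates 1, 2 and 3.

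*Fkbp2* (chr19:6977741-6980501), an ER prolyl isomerase, measured 9.67, 9.25 and 8.20 CPM in *Cryaa*-WT, 10.9, 9.90 and 9.996 CPM in *Cryaa*-R49C-het and 13.0, 16.2 and 15.1 CPM in *Cryaa*-R49C-homo. These 3 groups did not overlap either, and homozygous replicate 1 was the lowest of its group. The log2 difference from wild type was 0.71 ± 0.19 (FDR = 0.019). The FDR rose to 0.069 without homozygous replicate 2, and to 0.051, 0.063 and 0.083 without *Cryaa*-WT replicates 1, 2 and 3, and it was 0.077 when every gene with a count was kept.

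*Hspa5* (chr2:34771970-34777547), the gene of BiP, did not pass. It measured 64.3, 73.7 and 87.6 CPM in *Cryaa*-WT, 115, 142 and 136 CPM in *Cryaa*-R49C-het and 422, 154 and 134 CPM in *Cryaa*-R49C-homo. All 6 mutant libraries lay above the 3 wild-type ones, the heterozygous and homozygous ranges overlapped, and homozygous replicate 1 was far above the rest. The log2 difference between homozygous and wild-type lenses was 1.65 ± 0.59 (95% interval 0.50 to 2.81; FDR = 0.097), and 0.94 (FDR = 0.31) without that library. *Hspa5* passed when every gene with a count was kept (log2 1.71), with edgeR's likelihood-ratio test (1.28) and with library size alone as the scale (2.10). The prior degrees of freedom are the weight given to the spread shared over genes. Their median was infinite when every gene with a count was kept, against 10.25 for the genes tested. At an infinite value a gene is tested on the shared spread and not on that between its own libraries.

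**Figure D2:**
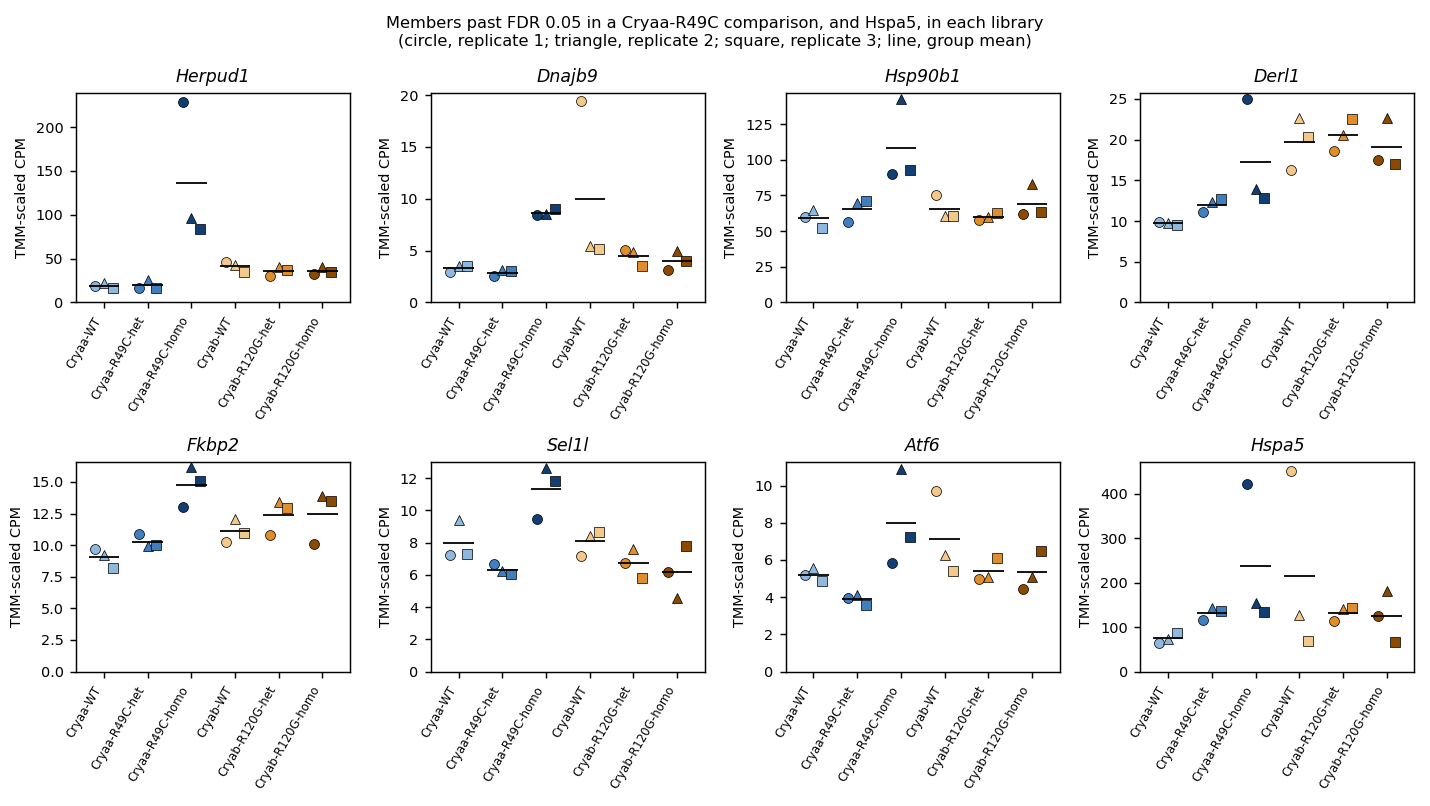
TMM-scaled CPM in each of the 18 libraries for the 7 genes past FDR 0.05 in a *Cryaa*-R49C comparison and for *Hspa5* (circle, triangle and square are replicates 1, 2 and 3; the line is the group mean; axes start at 0). *Herpud1* in *Cryaa*-R49C-homo reaches 229, 95.9 and 83.3 CPM, and *Hspa5* has a single high library both in *Cryaa*-R49C-homo (422 CPM) and in *Cryab*-WT (452 CPM).

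Among the 3 sensors and *Xbp1*, 0 of 4 genes passed between homozygous and wild-type lenses in edgeR's quasi-likelihood test, with 1 at an unadjusted p under 0.05 and 0 in DESeq2. With library size alone as the scale, *Xbp1* (log2 1.04, FDR = 0.035) and *Atf6* (1.03, FDR = 0.016) passed. *Atf6* (chr1:170704674-170867771), the membrane-bound transcription factor, measured 5.20, 5.57 and 4.87 CPM in *Cryaa*-WT, 3.98, 4.11 and 3.59 CPM in *Cryaa*-R49C-het and 5.84, 10.9 and 7.22 CPM in *Cryaa*-R49C-homo. The heterozygous libraries were the lowest of the line and the homozygous ones the highest, with no overlap. Homozygous lenses differed from wild type by log2 0.61 ± 0.25 (FDR = 0.12). With each of the 6 libraries left out in turn, this value ran from 0.32 to 0.80 and its FDR from 0.018 to 0.52. It passed in 1 of those 6 fits, at 0.80 (FDR = 0.018) without homozygous replicate 1.

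*Xbp1* (chr11:5520659-5525893), the factor whose mRNA IRE1 splices, measured 16.7, 15.8 and 13.0 CPM in *Cryaa*-WT, 14.1, 19.4 and 20.04 CPM in *Cryaa*-R49C-het and 35.8, 15.3 and 14.98 CPM in *Cryaa*-R49C-homo. Homozygous replicate 1 alone lay above every wild-type and heterozygous library. The log2 difference of homozygous from wild-type lenses was 0.54 ± 0.26 (FDR = 0.21) with it and -0.00046 without it.

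*Ern1* (chr11:106394650-106487852), which encodes the kinase and nuclease IRE1, measured 0.937, 1.08 and 1.09 CPM in *Cryaa*-WT, 0.981, 0.759 and 0.499 CPM in *Cryaa*-R49C-het and 0.793, 0.723 and 1.29 CPM in *Cryaa*-R49C-homo. *Eif2ak3* (chr6:70844515-70905245), which encodes the kinase PERK, measured 1.24, 0.507 and 0.596 CPM in *Cryaa*-WT, 0.654, 0.601 and 0.474 CPM in *Cryaa*-R49C-het and 0.573, 0.911 and 0.951 CPM in *Cryaa*-R49C-homo. The groups overlapped for both kinases. The log2 difference of homozygous from wild-type lenses was -0.16 (95% interval -0.97 to 0.65) for *Ern1* and 0.06 (-0.87 to 0.99) for *Eif2ak3*, intervals wide enough to hold a rise or a fall of 1.5-fold.

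By role, the 10 HSP70 and HSP90 chaperones and their partners had a median log2 difference of 0.57 between homozygous and wild-type lenses, with 9 of 10 above 0 and 2 past the threshold, where 50.4% of all genes lay above 0 and 4.87% passed as higher. The 9 ERAD genes tested had a median of 0.31, with 6 above 0 and 2 past the threshold. For the 10 disulfide and prolyl folding enzymes the median was 0.11, with 5 above 0 and 1 past the threshold. Without *Cryaa*-R49C-homo replicate 1 the median of the chaperones was 0.27, that of the ERAD genes 0.42, and that of the folding enzymes -0.38 with 8 of 10 below 0, so this library set the sign for the enzymes. Without any other library these medians ran from 0.48 to 0.73, from 0.33 to 0.43 and from 0.07 to 0.36. Neither lectin passed in edgeR's quasi-likelihood test. *Calr*, for the soluble calreticulin, measured 57.4, 58.2 and 45.2 CPM in *Cryaa*-WT and 74.3, 72.5 and 72.9 CPM in *Cryaa*-R49C-homo (log2 0.45 ± 0.18, FDR = 0.12). *Canx*, for the membrane-bound calnexin, measured 85.5, 83.9 and 70.5 CPM in wild type and 59.1, 83.4 and 60.04 CPM in homozygous lenses (log2 -0.24, FDR = 0.51). *Calr* passed in DESeq2. With library size alone as the scale the median of all genes stood at 0.41 and 15 of the 35 genes passed, all of them higher, as did 13.5% of all genes.

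The homozygous libraries disagreed among themselves, in this set and over all genes. Replicate 1 was the highest of the 3 for 21 of the 35 genes, against 39.3% of all genes tested. It lay above all *Cryaa*-WT libraries for 24 of the 35 genes, replicate 2 for 14 and replicate 3 for 16, where the shares of all genes were 34.1%, 34.7% and 34.1%. *Pdia3*, *Pdia6*, *Ppib* and *Derl2* were above every wild-type library in replicate 1 and below every one in replicates 2 and 3, a pattern that 8.87% of all genes showed. *Pdia3*, the isomerase that works with the lectins, measured 146, 54.0 and 46.1 CPM in the homozygous libraries against 77.5 to 87.6 CPM in wild type. *Pdia6*, an isomerase that binds BiP, measured 305, 127 and 106 CPM against 155 to 221 CPM.

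Without *Cryaa*-R49C-homo replicate 1, 10 genes passed against wild type, 7 higher and 3 lower. Of all genes 22.1% then passed, 9.55% higher and 12.6% lower. Higher were *Herpud1* (log2 2.22), *Dnajb9* (1.395), *Hsp90b1* (0.998), *Atf6* (0.80), *Fkbp2* (0.79), *Syvn1* (0.72), which encodes the ERAD ubiquitin ligase HRD1, and *Sel1l* (0.61), which encodes its adaptor. Lower were *Derl2* (-0.78), *Pdia6* (-0.75) and *Pdia3* (-0.72). With library size alone as the scale and the same library left out, the median gene moved to 0.27, 9 genes passed, all of them higher (13.3% of all genes), and *Derl2*, *Pdia6* and *Pdia3* stood at -0.43, -0.39 and -0.40 without passing. Replicates 2 and 3 were also the homozygous libraries with the lower lens fibre sum and the higher Gm42418 share, and their vessel and fibroblast markers summed to 62.1 and 56.0 CPM against 20.04 CPM in replicate 1 and 21.4 to 42.4 CPM in wild type. The part of these differences in the result was not tested.

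**Figure D3:**
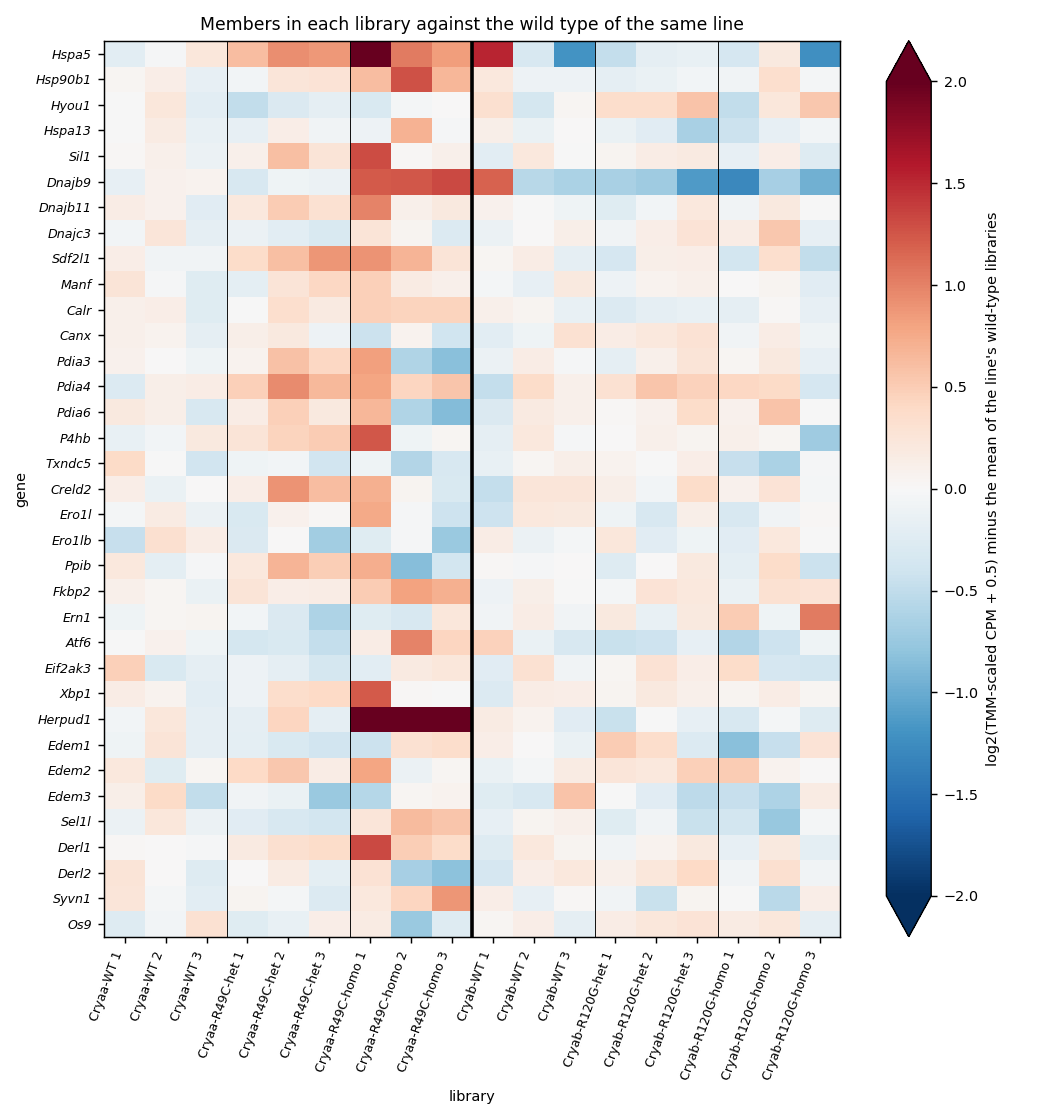
Each of the 35 genes tested (rows) in each of the 18 libraries (columns), as log2(TMM-scaled CPM + 0.5) minus the mean of the wild-type libraries of the same line; red is higher, blue lower, and colours saturate at 2. *Herpud1* and *Dnajb9* are red in all 3 *Cryaa*-R49C-homo libraries, whereas *Pdia3*, *Pdia6*, *Ppib* and *Derl2* are red in replicate 1 and blue in replicates 2 and 3. Of all genes tested, 8.87% lay above every *Cryaa*-WT library in replicate 1 and below every one in replicates 2 and 3.

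Other genes of the pathway gave the setting of these values in homozygous against wild-type lenses. Of 12 targets of the PERK, ATF4 and CHOP branch, 9 were higher and 0 lower, with *Ddit3* (the gene of CHOP) at log2 5.17 ± 0.31 and *Sesn2* at 3.18 ± 0.33. The median of that list was 3.02, or 2.86 with *Cebpb*, which had at most 3 counts in each wild-type library, set at its lower bound. Of 20 further ERAD genes, 3 were higher, led by *Vcp*, the ATPase that pulls clients from the membrane (1.48 ± 0.25), and the list's median was 0.13. Of 16 translocon and signal peptidase genes, 3 were higher (*Sec61b*, 0.96; *Sec61a1*, 0.76; *Sec62*, 0.79) and the median was 0.17. Of 16 N-glycosylation genes, 1 was higher (*Stt3a*, 1.42; list median 0.16), and of 13 other ER thioredoxin-like enzymes, 1 was lower (*Txndc12*, -1.22; list median -0.06). Of 12 other ER stress transducers and their proteases tested, 3 were higher (*Wfs1* 1.45, *Nfe2l1* 1.15 and *Mbtps2* 1.08) and 2 lower, with a median of 0.36. The median of all genes was 0.00473 here as well, and 4.87% of all genes passed as higher and 4.91% as lower.

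The lens fibre marker *Bfsp1*, which encodes a beaded filament protein, was lower in homozygous lenses (log2 -2.23), and of 4 lens epithelium markers 1 was lower (*Gja1*, -2.003). Among markers of other cells, 2 of 6 macrophage markers were higher in homozygous lenses (*C1qa*, 1.53; *Aif1*, 1.49), and the sum of the 6 was 13.8 to 27.8 CPM against 5.91 to 13.4 CPM in wild type. The lens epithelium sum was 62.9 to 73.03 CPM in homozygous and 78.2 to 107 CPM in wild-type lenses, and that of pigment and ciliary epithelium 9.58 to 14.9 CPM against 18.1 to 35.3 CPM, with 2 of 7 markers lower (*Pmel*, -2.02; *Mlana*, -2.17). Of 7 vessel and fibroblast markers, 1 was higher (*Cdh5*, 1.78) and 1 lower (*Col1a2*, -1.03). Photoreceptor markers summed to 10.7 to 18.3 CPM against 6.52 to 28.8 CPM and erythrocyte markers to 41.3 to 149 CPM against 36.7 to 57.8 CPM. Their part in the results for the ER genes was not tested.

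In heterozygous *Cryaa*-R49C lenses, 0 of the 35 genes passed against wild type by edgeR's quasi-likelihood test, by its likelihood-ratio test or by DESeq2, and 3 had an unadjusted p under 0.05. Of all genes, 0.00717% passed. The groups did not overlap for 11 of the 35 genes (8 higher and 3 lower), where 21.9% of all genes were so placed. The 8 higher ones were *Hspa5*, *Dnajb11*, *Sdf2l1*, *Pdia4*, *P4hb*, *Creld2*, *Fkbp2* and *Derl1*, at log2 0.18 to 0.80, and the 3 lower ones were *Sel1l*, *Atf6* and *Edem1*, at -0.45 to -0.34. *Pdia4*, an isomerase with extra active domains, measured 18.6, 25.8 and 20.9 CPM in *Cryaa*-R49C-het against 10.9, 14.4 and 14.6 CPM in wild type (log2 0.71 ± 0.24, FDR = 0.84). *Sdf2l1*, which assists BiP and its partners, measured 2.59, 3.13 and 3.91 CPM against 2.13, 1.79 and 1.79 CPM (0.76 ± 0.31, FDR = 0.84).

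Homozygous lenses set against heterozygous lenses gave 5 genes higher and 0 lower, where 8.32% of all genes passed in either direction and 4.69% passed as higher. These were *Herpud1* (log2 2.78 ± 0.31, FDR = 3.1e-06), *Dnajb9* (1.59 ± 0.35, FDR = 0.0070), *Atf6* (1.04 ± 0.25, FDR = 0.012), *Sel1l* (0.84 ± 0.21, FDR = 0.017) and *Hsp90b1* (0.72 ± 0.21, FDR = 0.036). *Sel1l* (chr12:91806043-91849157) measured 6.67, 6.23 and 6.06 CPM in *Cryaa*-R49C-het and 9.49, 12.6 and 11.8 CPM in *Cryaa*-R49C-homo, on both sides of the 7.24, 9.39 and 7.29 CPM of wild type. The groups did not overlap for 9 of the 35 genes, all higher in homozygous lenses, against 22.0% of all genes. *Herpud1* and *Dnajb9* passed with each of the 6 libraries left out. *Atf6* (FDR = 0.092), *Sel1l* (0.11) and *Hsp90b1* (0.21) missed when only the libraries of these groups were fitted. *Atf6* also missed without homozygous replicate 2 (0.74, FDR = 0.12) or *Cryaa*-R49C-het replicate 3 (0.98, FDR = 0.064). *Sel1l* missed without homozygous replicate 2 or 3 (0.75 and 0.80) or *Cryaa*-R49C-het replicate 2 or 3 (0.83 and 0.81), and *Hsp90b1* without homozygous replicate 2 (0.48) or *Cryaa*-R49C-het replicate 1, 2 or 3 (0.62, 0.77 and 0.78). When every gene with a count was kept, *Hsp90b1* missed (FDR = 0.067) and *Hspa5* passed. Of the cell markers, *Cdh5* (2.58), *Pdgfrb* (1.57) and *C1qa* (1.44) passed as higher in homozygous than in heterozygous lenses. *Bfsp1* (-1.53), *Gja1* (-1.60) and *Pmel* (-1.53) passed as lower. The part of these markers in the values of the ER genes was not tested.

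Without *Cryaa*-R49C-homo replicate 1, homozygous against heterozygous lenses gave 12 genes, 7 higher and 5 lower. Of all genes 29.4% then passed, 13.8% higher and 15.7% lower. The lower ones were *Ppib* (log2 -1.11), an ER cyclophilin, *Pdia3* (-1.10), *Pdia6* (-1.01), *Derl2* (-0.76) and *Creld2* (-0.74). The likelihood-ratio test, with all libraries, gave 7 higher and 3 lower (*Pdia3*, *Pdia6* and *Ppib*), where 9.99% of all genes passed as higher and 11.9% as lower. With library size alone as the scale and homozygous replicate 1 left out, *Ppib* (-1.03), *Pdia3* (-0.99) and *Pdia6* (-0.90) still passed as lower, as did 9.05% of all genes. *Ppib* measured 14.8, 20.7 and 18.2 CPM in *Cryaa*-R49C-het and 21.5, 6.88 and 9.73 CPM in *Cryaa*-R49C-homo, and exons of a gene on the opposite strand cover 25.0% of its exon bases.

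**Figure D4:**
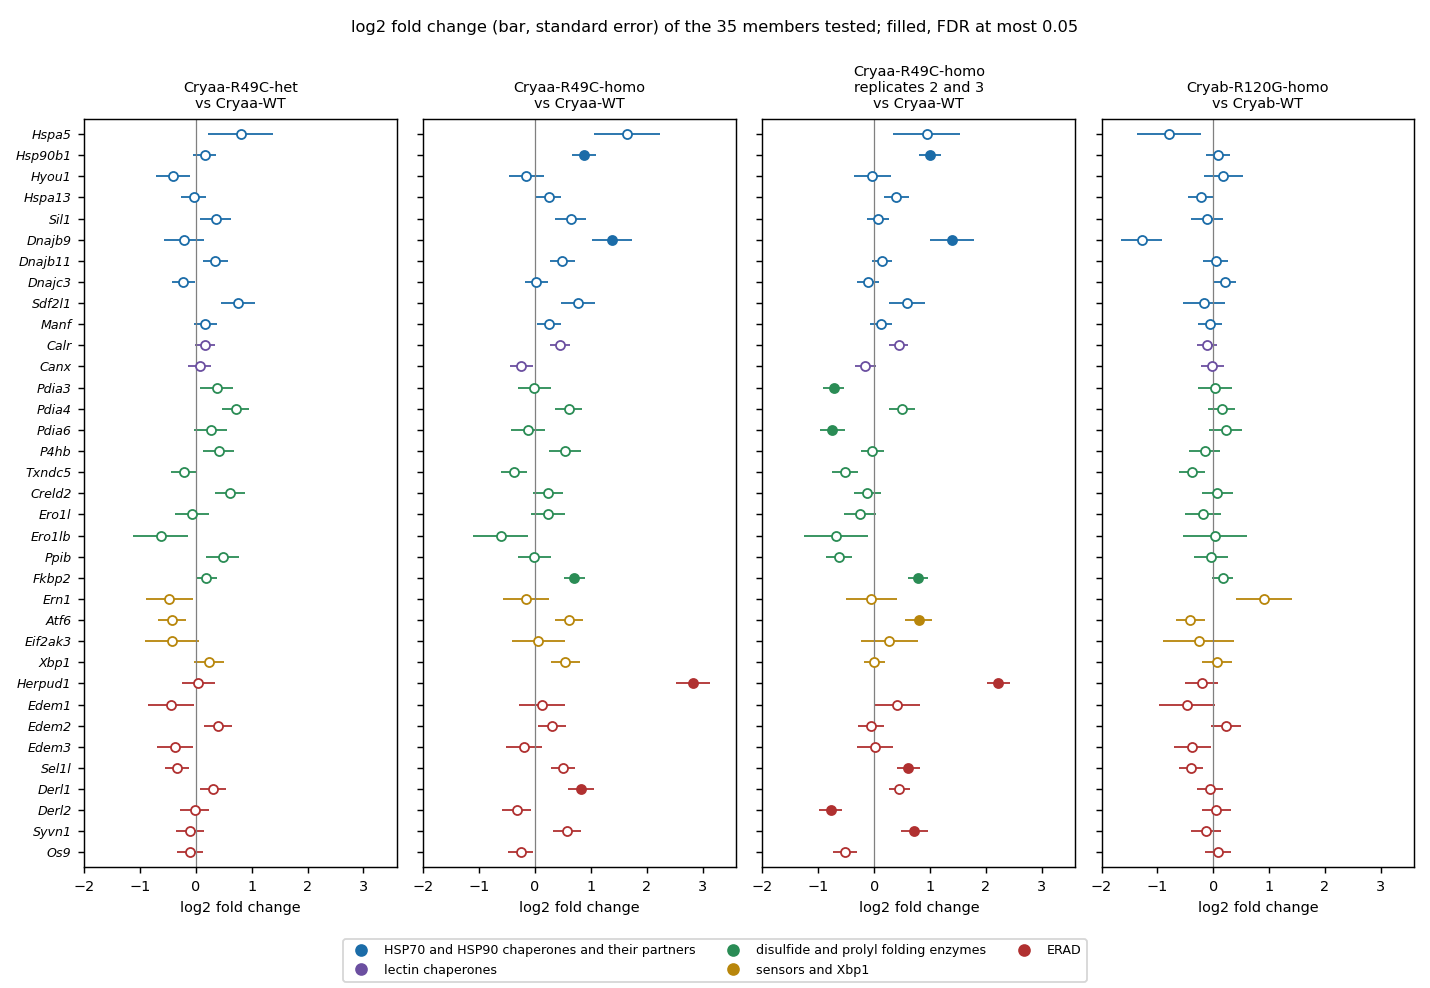
Log2 fold change of the 35 genes tested (bars are standard errors; filled points passed FDR 0.05) in 4 comparisons, with the third panel leaving out *Cryaa*-R49C-homo replicate 1. In the panel of all *Cryaa*-R49C-homo libraries 5 points are filled, all to the right of 0, in the third panel 10 are filled, 3 of them to the left, and the *Cryaa*-R49C-het and *Cryab*-R120G-homo panels have none.

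In the *Cryab* line, 0 of 35 genes passed in *Cryab*-R120G-homo against *Cryab*-WT, 0 in *Cryab*-R120G-het against *Cryab*-WT and 0 in homozygous against heterozygous lenses by edgeR's quasi-likelihood test, by its likelihood-ratio test and by DESeq2, with 1, 1 and 0 genes at an unadjusted p under 0.05. Of all genes, 0.0502%, 0.00717% and 0.0% passed. The groups did not overlap for 1 of the 35 genes in homozygous and 5 of 35 in heterozygous against wild-type lenses (3 higher and 2 lower), where 9.0% and 10.1% of all genes were so placed. *Dnajb9* was the gene with the small p in both: it measured 19.4, 5.47 and 5.12 CPM in *Cryab*-WT, 5.05, 4.83 and 3.50 CPM in *Cryab*-R120G-het and 3.08, 5.01 and 3.98 CPM in *Cryab*-R120G-homo. *Cryab*-WT replicate 1 was far above the 8 other libraries. The log2 difference of homozygous from wild-type lenses was -1.28 ± 0.36 (FDR = 0.46) with that library and -0.39 ± 0.26 without it. *Dnajb9* passed as lower in both mutant groups when every gene with a count was kept (FDR = 0.0029 and 0.035). That fit included *Cryab*-WT replicate 1 and tested the typical gene on the spread shared over genes, not on its own.

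*Hspa5* followed the same library: it measured 452, 126 and 68.6 CPM in *Cryab*-WT, 113, 140 and 143 CPM in *Cryab*-R120G-het and 125, 180 and 67.1 CPM in *Cryab*-R120G-homo. The log2 difference of homozygous from wild-type lenses was -0.79 ± 0.58 with *Cryab*-WT replicate 1 and 0.35 ± 0.42 without it. In that library *Hspa5* was 3.59 times, *Dnajb9* 3.94 times and *Atf6* 1.85 times the median of the 8 other *Cryab* libraries, whereas *Hsp90b1* was 1.23 times and *Pdia4* 0.547 times that median. *Herpud1* measured 46.2, 43.0 and 34.8 CPM in *Cryab*-WT, 29.9, 40.7 and 36.5 CPM in *Cryab*-R120G-het and 32.8, 40.0 and 34.3 CPM in *Cryab*-R120G-homo, with overlapping groups. Apart from *Dnajb9*, the log2 differences of homozygous from wild-type lenses ran from -0.79 to 0.90, and the smallest FDR was 0.87.

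The difference between the lines in the homozygous effect was tested as an interaction. It passed for 2 of 35 genes, where 2.91% of all genes passed: *Herpud1* (log2 3.04 ± 0.42, FDR = 0.00012) and *Dnajb9* (2.66 ± 0.51, FDR = 0.0041). The homozygous value of *Dnajb9* was 1.38 in the *Cryaa* line and -1.28, not past the threshold, in the *Cryab* line, and that of *Herpud1* was 2.83 and -0.21. Without *Cryab*-WT replicate 1 the values were 2.95 and 1.77 (FDR = 0.00043 and 0.0051), and both passed with each of the 12 libraries left out. Without *Cryaa*-R49C-homo replicate 1, 8 genes passed, 5 positive and 3 negative, while the share of all genes grew to 13.0%, and without *Cryab*-WT replicate 3 *Hspa5* passed as well. In the PERK, ATF4 and CHOP list, 10 of 12 genes passed in the same direction. *Atf3* and *Cebpb* were among the 10 but did not pass in *Cryaa*-R49C-homo against *Cryaa*-WT. Both were higher in *Cryab*-WT than in *Cryaa*-WT (log2 7.87 and 4.02). In *Cryab*-R120G-homo against *Cryab*-WT, 0 of the 12 passed and 1 lay above 0. The median there was -0.30 and the lowest value -6.79, so values of both lines enter this count. The lines were sampled at different ages, so mutation and age cannot be told apart in these values.

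Wild-type lenses of the *Cryab* line at 14 days were set against wild-type lenses of the *Cryaa* line at 2 days. After TMM scaling *Dnajb9* (log2 1.56), *Herpud1* (1.11) and *Derl1* (1.02) were higher at 14 days, 3 of 35 where 23.2% of all genes passed. With library size alone the median of all genes moved to -1.61, 30 of the 35 genes and 82.1% of all genes passed as lower, and *Dnajb9*, *Herpud1* and *Derl1* stood at -0.0065, -0.42 and -0.53, so their direction holds only relative to the typical gene. *Dnajb9* missed without *Cryab*-WT replicate 1 (0.67, FDR = 0.057) and when only the libraries of these groups were fitted (FDR = 0.10), and *Herpud1* without *Cryaa*-WT replicate 3 (1.02, FDR = 0.051). *Derl1* measured 16.3, 22.7 and 20.3 CPM in *Cryab*-WT, above all 3 *Cryaa*-WT libraries. Cell markers moved as well: 5 of 6 photoreceptor and 5 of 8 lens fibre markers passed as higher at 14 days. Lower were 6 of 6 macrophage, 4 of 7 vessel and fibroblast, 4 of 7 pigment and ciliary epithelium and 2 of 4 lens epithelium markers. Of 5 erythrocyte markers 0 passed. Their part in the values of the ER genes was not tested.

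Promoter letters were also set beside the homozygous against wild-type values of the *Cryaa* line. Among the 11 tested genes with ERSE or ERSE-II in the window, 2 passed (*Hsp90b1* and *Herpud1*) and the median log2 difference was 0.45, with a range from -0.62 for *Ero1lb* to 2.83 for *Herpud1*. Among the 18 tested genes with a window and neither element, 2 passed (*Dnajb9* and *Fkbp2*) and the median was 0.19. Of all 10327 tested genes with a window 9.80% passed, and the ranges of the 2 sets overlapped. Without *Cryaa*-R49C-homo replicate 1 the medians were 0.14 and -0.02, and without any other library 0.34 to 0.51 and 0.09 to 0.35.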

How the data were processed

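RNA from pooled whole lenses was sequenced by the authors as short single reads from poly-A libraries (18 libraries, 6 groups of 3). The authors aligned the reads with STAR 2.0.4b to GRCm38 and counted uniquely aligned, unambiguous reads per Ensembl gene with featureCounts 1.4.5. The deposited counts are not normalized, and were checked to be whole numbers. The deposited CPM, length-scaled and log2 tables were not used, and the strand setting is not stated in the sources used here. The count table has 41422 lines for 40800 genes, and repeated lines were reduced to 1 per gene. Library totals were 14272174 to 29639719 counts, and genes such as *Ern1* with few counts have wide intervals.

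Counts of the 13938 genes kept by filterByExpr were scaled with TMM, and 1 model of the 6 groups over all 18 libraries was tested with edgeR 4.0.16 (R 4.3.3, quasi-likelihood, robust dispersions). FDR values are Benjamini-Hochberg over those genes, with a threshold of 0.05. Standard errors are the log2 fold change over the root of F, and give the 95% intervals. CPM are TMM-scaled. Lengths per kb are union exon lengths, and gene positions come from GENCODE vM21 (GRCm38). The edgeR script was tested on simulated data. Alternatives were DESeq2 1.42.0, edgeR's likelihood-ratio test with robust dispersions, other scalings and filters, only the groups compared, a replicate block and each library left out.

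The 36 genes, the role groups and the other lists were chosen with earlier results of these data known. Values per library are given for each gene past the threshold in a comparison within a line and for *Hspa5*, *Xbp1*, *Ern1*, *Atf6* and *Eif2ak3*; other genes with values were named after theirs were seen. After removing group means, only *Cryab*-R120G-homo and *Cryab*-WT libraries of the same replicate number correlated above 0.1 in every pair (r = 0.28, 0.18 and 0.16), and the replicate block left 0 of the 35 genes tested past the threshold there.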

Additional observations from a re-analysis of the deposited data

Results flagged for a closer look

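The effect of homozygosity differed between the lines for 2 of the 35 genes tested (2.91% of all genes), by the interaction term of edgeR's model. The log2 difference was 3.04 for *Herpud1* and 2.66 for *Dnajb9*, as the *Cryaa* effect minus the *Cryab* effect. Without *Cryab*-WT replicate 1, where *Dnajb9* measured 19.4 CPM against 5.47 and 5.12 CPM in the other *Cryab*-WT libraries, the values were 2.95 and 1.77. *Herpud1* was higher than every wild-type library of its line in 3 of 3 *Cryaa*-R49C-homo libraries, and its range overlapped that of *Cryab*-WT in *Cryab*-R120G-homo. *Dnajb9* was above every wild-type library of its line in 3 of 3 *Cryaa*-R49C-homo libraries and below every one in 3 of 3 *Cryab*-R120G-homo libraries.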

How the results depend on the processing

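Counts of genes past FDR 0.05 depended on the test, the scale and single libraries. In *Cryaa*-R49C-homo against *Cryaa*-WT (5 genes), library size alone gave 15 (15.3% of all genes), edgeR's likelihood-ratio test 9 (20.7%), only the libraries compared 2 (3.39%), and leaving out a library 2 to 10 (5.35% to 22.1%). In homozygous against heterozygous *Cryaa*-R49C lenses (5 genes), the likelihood-ratio test gave 10 (21.9%), only the libraries compared 2 (2.15%), and leaving out a library 2 to 12 (3.3% to 29.4%). An alternative chosen after seeing the data, without *Cryaa*-R49C-homo replicate 1 and with library size alone, gave 9 (18.3%) and 10 (20.5%). Each *Cryab* mutant group against *Cryab*-WT had 1 gene with every counted gene kept (1.14% of all genes in homozygous and 0.527% in heterozygous lenses). With a library left out these and the 2 other comparisons without calls gave 0 to 0. The difference between the lines gave 2 to 8 with a library left out (1.81% to 13.0%). Between the wild types (3 genes), every counted gene (12.7%) and the likelihood-ratio test (32.9%) gave 5, library size alone 30 (83.2%), and leaving out a library 2 to 4 (13.0% to 22.9%). The replicate block gave 5, 5, 2 and 3 in these comparisons with calls and 0 in the others, and changed no call. *Ern1* in *Cryaa*-R49C-homo against *Cryaa*-WT turned to 0.22 with library size alone and to 0.23 also without homozygous replicate 1. *Eif2ak3* ran from -0.18 to 0.54 and *Xbp1* from -0.00046 to 0.75 with a library left out. Between the wild types, library size alone gave -0.0065 for *Dnajb9*, -0.53 for *Derl1* and -0.42 for *Herpud1*. The cause of these shifts was not tested. The 3 libraries per group, ages that differ between lines, and 2 to 36 counts for *Ern1* and *Eif2ak3* limit all values.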

Other observations

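Outside the 36 genes, 15 further genes tested had ERSE or ERSE-II in a promoter window. Their log2 differences of *Cryaa*-R49C-homo from *Cryaa*-WT ran from -0.52 for *Nucb1*, a calcium-binding Golgi protein, to 0.70 for *Spats2l*, with a median of 0.08 and a smallest FDR of 0.15, where 9.80% of the 10327 tested genes with a window passed.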
